A study of Mus musculus with 6 samples.

Results

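The 10 genes described here belong to transforming growth factor beta (TGF-beta) signalling and were measured in EO771 cells, an established mouse mammary tumour line, with and without added lipocalin-2 (LCN2) protein. They comprise the ligand genes Tgfb1, Tgfb2 and Tgfb3, the activin subunit gene Inhba, the receptor genes Tgfbr1 and Tgfbr2, the signal transducer Smad3, and the feedback regulators Smad7, Skil and Tgif1. The genes were selected by symbol, and all 10 were found among the 19832 genes of the deposited table. Unexposed EO771 cells (control) gave 3 RNA libraries and cells given recombinant LCN2 protein (LCN2) gave 3, numbered as replicates 1 to 3. The labels give no dose or exposure time, and they do not say whether replicates came from separate cultures, so the spread measured here may be technical in part.

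TGF-beta ligands are made as latent precursors, cut by furin-type proteases and released from latency by integrins or matrix proteins. The active ligand binds TGFBR2, which phosphorylates TGFBR1, and TGFBR1 in turn phosphorylates SMAD2 and SMAD3, which join SMAD4 and enter the nucleus. SMAD7 blocks the receptors, while SKIL and TGIF1 repress SMAD-dependent transcription, and Smad7 and Skil are themselves induced by the pathway. In mammary epithelium TGF-beta restrains growth, and in carcinoma cells it is known for promoting loss of epithelial features and invasion.

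Levels are given as FPKM, fragment abundance scaled to transcript length and library size, so that they may be compared between genes. This unit was inferred from the values and is not named in the sources used here. Column sums lay between 391569 and 410808, and a library had 13299 to 13461 genes above 0. The number of reads is unknown. On the first principal component, which held 60.5% of the variance, LCN2 replicate 2 stood at 4.33, between the other LCN2 libraries (15.7 and 16.5) and the controls (-17.3 to -8.09). Keratins 8 and 18 averaged 308 and 693 FPKM in the controls, whereas the E-cadherin gene Cdh1 averaged 0.140 FPKM. Of 7 tested markers of mammary epithelium or carcinoma, Krt14 (log2 change 0.18) and Krt18 (0.17) were called higher, and Krt8 (-0.27) and Krt19 (-0.22) lower. Of 6 leukocyte and macrophage markers in the table, Cd14 rose from 7.84 ± 0.914 to 9.58 ± 0.793 FPKM (adjusted p = 0.033, limma) and Cd68 averaged 8.48 and 9.09 FPKM (adjusted p = 0.16), whereas the pan-leukocyte gene Ptprc averaged 0.0211 and 0.0335 FPKM. The other markers had lower means with LCN2 and were below the level for testing. Itgam averaged 1.18 and 0.725 FPKM with no overlap between groups, Lyz2 0.338 and 0.189 FPKM, and Csf1r 0.333 and 0.248 FPKM. The 6 markers summed to between 16.6 and 20.3 FPKM in the controls and between 19.0 and 20.5 FPKM with LCN2. Of 7 fibroblast markers listed, the 4 in the table summed to at most 4.71 FPKM, with Pdgfra the highest (means 4.30 and 3.61 FPKM). Dcn and Vim, given below as pathway genes, were not on that list. Endothelial markers summed to at most 0.822 FPKM. In these 2 lists 0 genes were called, and 5 of 6 mast cell markers were at 0 in every library. The part of these markers in the results was not tested. The Lcn2 gene itself, which does not report on added protein, averaged 0.0891 ± 0.0328 FPKM in control cells and 0.276 ± 0.0347 FPKM in LCN2 cells (SD, n = 3).

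Transcripts for one ligand, one receptor, one transducer and one repressor of the pathway rose with LCN2. These were Tgfb1, Tgfbr2, Smad3 and Tgif1, and their rises were between 0.21 and 0.55 on the log2 scale. Tgfbr1, Smad7 and Skil did not pass the test. Tgfb2, Tgfb3 and Inhba were near 0 and were below the level required for testing, a mean of 1 FPKM over the 6 libraries. Thus 4 of the 7 tested genes were called higher and 0 lower (0 lower also at an unadjusted p under 0.05) at an adjusted p under 0.05 in limma, a linear model fitted to all genes, where 11.6% of 10309 tested genes were called higher and 9.87% lower. The median log2 fold change of the 7 was 0.21, beside -0.0013 for all tested genes. After scaling between libraries the 3 LCN2 values lay above the 3 control values in 5 of the 7, as they did in 22.6% of all tested genes, and in 0 of the 7 they lay below (21.8% of all tested genes). The 4 calls became 1 (Smad3) without LCN2 replicate 1, where 2.55% of all genes were called in either direction. They became 2 (Tgfb1 and Smad3) without control replicate 1 (6.04%), control replicate 3 (4.46%) or LCN2 replicate 3 (4.63%). The calls remained 4 in number without control replicate 2 (17.3%) or LCN2 replicate 2 (30.6%). Over all genes 1192 were called higher and 1017 lower, but 693 higher and 1680 lower with values as deposited. The RNA was taken in bulk, so more cells making a transcript and more transcript per cell cannot be told apart.

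**Figure D1:**
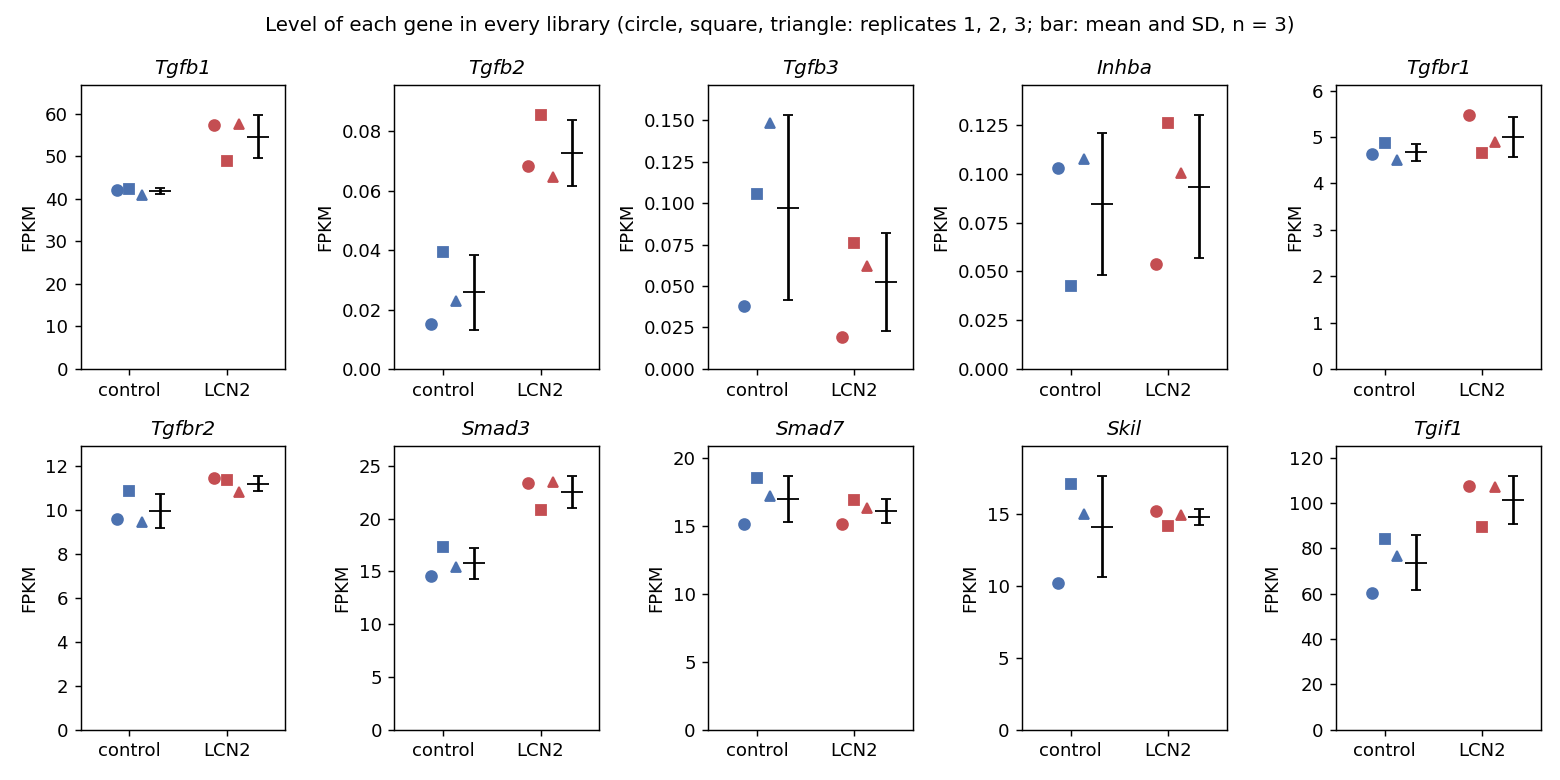
FPKM as deposited of each of the 10 genes (vertical axis, starting at 0 and scaled per gene) in the 3 control (blue) and 3 LCN2 (red) libraries, with mean and SD. Tgfb1, Tgfb2, Smad3 and Tgif1 show no overlap between groups, and Tgfb2, Tgfb3 and Inhba stay at or below 0.148 FPKM.

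The promoters of the 3 rising genes that have a single start site in the promoter table are printed below. Whether these genes are regulated together was not tested. They are the 250 bases before the annotated start (RefSeq, GRCm38.p6), 5′ to 3′ on the strand of the gene, with each GC box (GGGCGG or its reverse complement, the site bound by SP1) in capitals. The windows are chr7:25686752-25687001 on the plus strand for Tgfb1, chr9:63757995-63758244 on the minus strand for Smad3 and chr9:116175364-116175613 on the minus strand for Tgfbr2.
Tgfb1: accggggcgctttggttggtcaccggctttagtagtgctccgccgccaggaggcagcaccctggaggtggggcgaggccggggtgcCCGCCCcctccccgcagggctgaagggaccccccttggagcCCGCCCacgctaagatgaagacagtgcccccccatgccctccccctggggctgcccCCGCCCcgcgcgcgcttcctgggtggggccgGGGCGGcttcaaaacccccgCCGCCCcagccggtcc
Smad3: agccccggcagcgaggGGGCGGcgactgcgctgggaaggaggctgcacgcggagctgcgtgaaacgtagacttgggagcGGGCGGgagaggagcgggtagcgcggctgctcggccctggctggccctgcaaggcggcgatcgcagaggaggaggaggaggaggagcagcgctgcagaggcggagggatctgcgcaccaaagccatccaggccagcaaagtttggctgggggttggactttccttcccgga
Tgfbr2: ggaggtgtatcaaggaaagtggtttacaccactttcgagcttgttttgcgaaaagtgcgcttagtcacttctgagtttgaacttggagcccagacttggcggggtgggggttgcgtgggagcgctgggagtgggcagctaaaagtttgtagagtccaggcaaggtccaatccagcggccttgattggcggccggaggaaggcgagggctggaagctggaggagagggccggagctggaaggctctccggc
The Tgfb1 window held 5 GC boxes, beginning 164, 123, 67, 36 and 16 bases before the start, and was 75.2% G or C. Smad3 had 2 GC boxes and a G or C content of 69.2%, while Tgfbr2 had 0 GC boxes and 58.4%. A GC box was present in 32.7% of 32851 windows of this length. None of the 3 windows held the SMAD-binding palindrome GTCTAGAC (found in 0.167% of windows), the shorter SMAD motif CAGACA (17.1%), the AP-1 motif TGANTCA (6.75%), the TEAD motif GGAATG (12.6%) or TATAAA (12.4%), each searched on both strands. Only these windows and letters were searched. Tgif1 has 5 start sites in the table, with the CAGACA motif before 2 of them and GC boxes before another 2 (5 boxes and 1 box), and the values do not show which start was used. Tgfb3, Skil and Smad7 have no sequence printed here.

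Tgfb1 was the predominant ligand transcript, and it rose. It made up between 99.6% and 99.9% of the summed FPKM of the 3 TGF-beta ligand genes in every library. Tgfb1 (ENSMUSG00000002603, chr7:25687002-25705077, GRCm38, plus strand) stood at 42.1, 42.3 and 41.0 FPKM in control replicates 1 to 3 and at 57.4, 48.9 and 57.5 FPKM in LCN2 replicates 1 to 3. All LCN2 values lay above all control values, and LCN2 replicate 2 was the lowest of its group. The means were 41.8 ± 0.706 and 54.6 ± 4.98 FPKM (SD, n = 3), a ratio of 1.31. The log2 fold change was 0.43 (SE 0.07, 95% interval 0.27 to 0.60, adjusted p = 0.011, limma). Without LCN2 replicate 1 the adjusted p was 0.056, and without LCN2 replicate 2 it was 0.0018.

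The other ligands were close to the lower end of the table. Tgfb2 (chr1:186622792-186705989), a ligand needed in heart and palate development, was at 0.0150, 0.0395 and 0.0229 FPKM in the controls and at 0.0683, 0.0854 and 0.0646 FPKM with LCN2. Its groups did not overlap, and the exact permutation test (two-sided) returned p = 0.1, its lower limit with 3 libraries a side. Tgfb3 (chr12:86056745-86079041) ranged from 0.0194 to 0.148 FPKM with overlapping groups (exact permutation p = 0.3). Inhba (chr13:16011851-16031621), whose product forms activin A, ranged from 0.0427 to 0.126 FPKM, again with overlapping groups (exact permutation p = 0.7). In limma without the filter on level, adjusted p was 0.071 for Tgfb2, 0.44 for Tgfb3 and 0.84 for Inhba. Exons of Tgfb2 and Tgfb3 overlap those of predicted genes on the other strand, and the handling of strand is not given in the sources used here. The other 8 genes have no such overlap.

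Both receptor subunits were expressed at lower levels than the ligand, and the type II receptor rose slightly. Tgfbr2 (ENSMUSG00000032440, chr9:116084293-116175360), which binds the ligand first, was at 9.58, 10.9 and 9.46 FPKM in the controls and at 11.5, 11.4 and 10.8 FPKM with LCN2. As deposited the groups overlapped, because control replicate 2 lay just above LCN2 replicate 3, and after scaling they did not. The log2 fold change was 0.21 (SE 0.05, 95% interval 0.09 to 0.34, adjusted p = 0.031, limma). The call was lost with values as deposited (adjusted p = 0.14) and scaled to column sums (adjusted p = 0.057), and in 4 of the 6 leave-one-library-out fits (without control replicate 1 or 3 or LCN2 replicate 1 or 3, adjusted p of up to 0.11). Tgfbr1 (ENSMUSG00000007613, chr4:47353222-47414931), the kinase that phosphorylates SMAD2 and SMAD3, was at 4.64, 4.87 and 4.52 FPKM in the controls and at 5.47, 4.65 and 4.89 FPKM with LCN2. As deposited, only LCN2 replicates 1 and 3 lay above the highest control, and after scaling every LCN2 library did. The log2 fold change of 0.13 (95% interval -0.03 to 0.30) had an adjusted p of 0.21 in limma. Within each library Tgfbr2 was between 2.06 and 2.44 times Tgfbr1.

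The transducer Smad3 rose, and the inhibitory Smad7 did not pass the test. Smad3 (ENSMUSG00000032402, chr9:63646767-63757994) stood at 14.5, 17.4 and 15.4 FPKM in the controls and at 23.4, 20.8 and 23.4 FPKM with LCN2. Every LCN2 library lay above every control, and LCN2 replicate 2 was again the lowest of its group. The means were 15.8 ± 1.45 and 22.5 ± 1.49 FPKM (SD, n = 3), a ratio of 1.43. The log2 fold change was 0.55 (SE 0.07, 95% interval 0.39 to 0.71, adjusted p = 0.0057, limma). Smad3 was called in each of the 6 leave-one-library-out fits (adjusted p between 0.0021 and 0.036) and in the 9 fits with another setting (0.0058 to 0.042). Of the 4 genes that rose, only Smad3 was called in all 15 of these fits.

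Smad7 (ENSMUSG00000025880, chr18:75367529-75395935) was at 15.2, 18.6 and 17.2 FPKM in the controls and at 15.2, 16.9 and 16.3 FPKM with LCN2. The groups overlapped, and the lowest library of each was replicate 1. Its log2 fold change was -0.0092, with a 95% interval of -0.17 to 0.15 (adjusted p = 0.93, limma). That interval ends below the lower end of the interval of Smad3. The ratio of Smad3 to Smad7 within a library, chosen after the values were seen and given with no test, was 0.957, 0.934 and 0.894 in the controls and 1.54, 1.23 and 1.44 with LCN2. This ratio does not depend on scaling between libraries, and every LCN2 library exceeded every control.

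**Figure D2:**
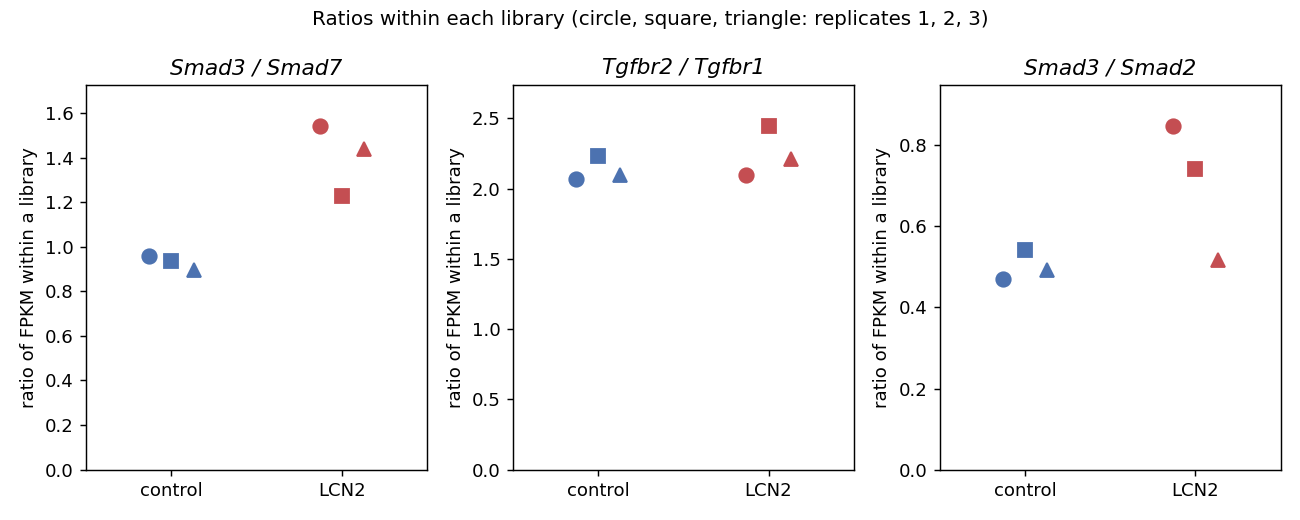
Ratio of FPKM within each library (vertical axes from 0) for Smad3 to Smad7, Tgfbr2 to Tgfbr1 and Smad3 to Smad2, in control (blue) and LCN2 (red) libraries. Smad3 to Smad7 was at most 0.957 in the controls and at least 1.23 with LCN2, whereas the Tgfbr2 to Tgfbr1 ratio and the Smad3 to Smad2 ratio overlapped between groups.

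The nuclear repressors differed from each other. Tgif1 (ENSMUSG00000047407, chr17:70844205-70853546), a homeodomain protein that recruits repressors to SMAD complexes, had the highest level of the 10 genes. It was at 60.5, 84.1 and 76.5 FPKM in the controls and at 107.8, 89.2 and 107.2 FPKM with LCN2. The groups did not overlap, with means of 73.7 ± 12.1 and 101.4 ± 10.5 FPKM (SD, n = 3). The log2 fold change was 0.52 (SE 0.12, 95% interval 0.25 to 0.80, adjusted p = 0.022, limma). The call was lost when control replicate 1 was removed (0.41 on the log2 scale, adjusted p = 0.053) and on removal of control replicate 3 (adjusted p = 0.061) or of LCN2 replicate 1 or 3 (adjusted p = 0.087 and 0.086). Without the filter on level its adjusted p was 0.051.

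Skil (ENSMUSG00000027660, chr3:31095058-31122577), which encodes the SnoN repressor, was at 10.2, 17.1 and 15.0 FPKM in the controls and at 15.2, 14.2 and 15.0 FPKM with LCN2. Control replicate 1 alone lay below every other library, and the LCN2 values fell within the range of the controls. The log2 fold change was 0.15 (95% interval -0.19 to 0.49, adjusted p = 0.49, limma), and -0.04 without control replicate 1 (adjusted p = 0.72). Control replicate 1 was also the lowest control for Smad3, Smad7 and Tgif1, by 0.08, 0.12 and 0.24 below the control mean on the log2 scale, whereas for Tgfb1 and Tgfbr1 it lay above that mean.

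**Figure D3:**
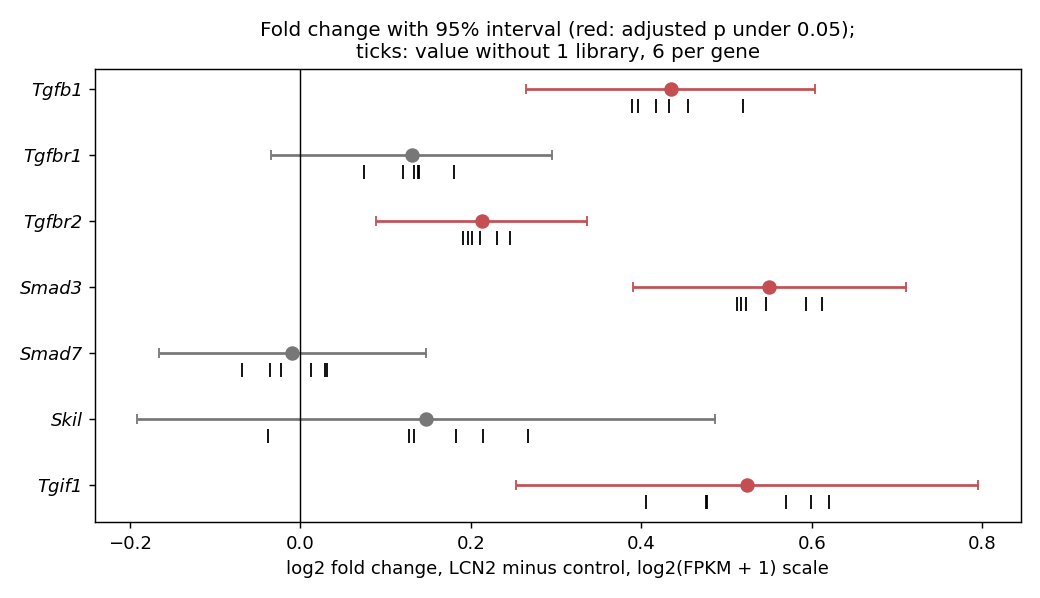
Log2 fold change of the 7 tested genes (LCN2 minus control, horizontal axis) with the 95% interval from limma; black ticks give the value with 1 of the 6 libraries left out. Only Skil and Smad7 have ticks on both sides of 0, and the ticks of Smad3 lie between 0.51 and 0.61.

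In control cells the levels ran in the order Tgif1, Tgfb1, then Smad7, Smad3 and Skil, then Tgfbr2, Tgfbr1 and the 3 genes near 0. Smad7 (17.0 ± 1.70 FPKM), Smad3 (15.8 ± 1.45 FPKM) and Skil (14.1 ± 3.53 FPKM) had overlapping ranges, although within each control library Smad7 was above Smad3 (a Smad3 to Smad7 ratio of 0.894 to 0.957) and Smad3 above Skil. The lowest Skil value (10.2 FPKM) lay within the range of Tgfbr2. With LCN2, Smad3 stood above Smad7 (16.1 ± 0.898 FPKM) and Skil (14.8 ± 0.540 FPKM) in every library, and the ranges of the latter pair overlapped.

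Among other genes of the pathway, those that release the ligand included both rises and falls. Of 7 tested release and latency genes 3 were called higher and 1 lower, or 2 and 1 of 6 without Itgb6, beside 11.6% and 9.87% of all tested genes. The median log2 fold change was 0.15, or 0.095 without Itgb6. Itgav, the integrin alpha subunit that binds latent TGF-beta, rose from 28.8 ± 1.07 to 37.3 ± 2.16 FPKM (log2 change 0.42, adjusted p = 0.0063, limma) and was called whichever library was left out. Itgb6, its beta-6 partner in latent TGF-beta activation, was at 0.455, 0.831 and 0.427 FPKM in the controls and at 1.75, 1.38 and 1.82 FPKM with LCN2. Itgb6 reached the level required for testing only through its LCN2 values, so its call is not given as a result. Bmp1, a protease that frees latent complexes from matrix, rose by 0.22 (adjusted p = 0.038), but its call was lost in each of the 6 leave-one-library-out fits (adjusted p of up to 0.12). Of the 9 fits with another setting, 5 called Bmp1, and with values as deposited it did not pass (adjusted p = 0.13). Thbs1, the matrix protein thrombospondin-1 that activates latent TGF-beta, fell from 73.3 ± 8.16 to 56.7 ± 3.16 FPKM (log2 change -0.30, adjusted p = 0.020), and lost its call without control replicate 3 or without LCN2 replicate 1 or 3 (up to 0.080). The processing protease Furin (43.3 and 46.2 FPKM) and the latency protein Ltbp3 (23.0 and 22.3 FPKM) were the most abundant uncalled genes.

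Receptors other than the 2 above showed a single call. Of 5 tested, 0 were called higher and 1 lower, beside 11.6% and 9.87% of all tested genes, and the median log2 fold change was 0.12. Cd109, a coreceptor that dampens TGF-beta signalling, fell from 5.04 ± 0.215 to 4.02 ± 0.0829 FPKM (log2 change -0.22, adjusted p = 0.034, limma), a call kept only without LCN2 replicate 2 among the 6 leave-one-library-out fits (otherwise adjusted p of up to 0.11). The type I receptor genes Acvr1 (12.3 and 14.5 FPKM, adjusted p = 0.065) and Acvr1b (4.24 and 4.21 FPKM, adjusted p = 0.65) did not pass.

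Of 9 tested SMAD genes and partners 1 was called higher and 1 lower (11.1% each), close to the 11.6% and 9.87% of all tested genes, with a median log2 fold change of 0.12. Smad6, an inhibitory SMAD acting mainly on bone morphogenetic protein signals, fell from 7.46 ± 0.352 to 5.61 ± 0.425 FPKM (log2 change -0.30, adjusted p = 0.020, limma). Zfyve9, the SARA anchor that presents SMAD2 and SMAD3 to the receptor, rose from 9.17 ± 0.597 to 11.3 ± 1.02 FPKM (log2 change 0.33, adjusted p = 0.028). The Smad6 call was lost without control replicate 1 or 3 or LCN2 replicate 1 or 3 (adjusted p of up to 0.079), and that of Zfyve9 in every such fit but the 1 without LCN2 replicate 2 (up to 0.097). Smad2, the other receptor-activated SMAD of TGF-beta, was at 31.0, 32.0 and 31.2 FPKM in the controls and at 27.6, 28.1 and 45.4 FPKM with LCN2, so that LCN2 replicate 3 alone was above the controls (adjusted p = 0.65). The shared partner Smad4 averaged 36.5 and 38.8 FPKM (adjusted p = 0.15).

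The list of pathway inhibitors, which also held the uncalled deubiquitinase gene Usp15, gave 3 calls higher and 0 lower among 11 tested. That is 27.3% higher beside 11.6% of all tested genes, and 1 gene was lower at an unadjusted p under 0.05 in limma. At 9.87% of all genes lower, a count of 0 among 11 is near the background. The median log2 fold change was 0.088. Dcn, the proteoglycan decorin that binds TGF-beta outside the cell, was abundant and rose from 504 ± 30.8 to 595 ± 16.6 FPKM (log2 change 0.30, adjusted p = 0.0064, limma), called whichever library was left out. Ppm1a, a SMAD phosphatase (0.27, adjusted p = 0.038), and Smurf1, a ubiquitin ligase for SMADs and receptors (0.19, adjusted p = 0.043), rose less. Ppm1a was called only without control replicate 2 or LCN2 replicate 2 (otherwise adjusted p of up to 0.13), and Smurf1 in none of these 6 fits (up to 0.13). With values as deposited neither passed. Fkbp1a, which encodes the protein that holds TGFBR1 inactive, averaged 329.8 and 335.8 FPKM, and the ubiquitin ligase gene Nedd4l 33.1 and 31.4 FPKM, with no call. Of the activin system 3 genes were tested and 0 called, with unadjusted p under 0.05 for 1 of them. Follistatin (Fst), which traps activin, averaged 26.7 and 23.0 FPKM (log2 change -0.14, adjusted p = 0.062), and was called lower under 3 of the other scalings. Fstl3 averaged 3.47 and 4.05 FPKM (adjusted p = 0.16).

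Most of the tested genes listed as TGF-beta targets were called higher. Of 28 such genes in the table, 10 were below the level for testing. Of the 18 tested, 11 were higher and 1 lower, with a median log2 fold change of 0.32, beside 11.6% and 9.87% of all tested genes. Smad7 and Skil, which the pathway also induces, are members and not on this list, and neither passed (adjusted p = 0.93 and 0.49, limma). Pmepa1, another response gene, was on the inhibitor list and below the level for testing (0.0162 and 0.0309 FPKM). Every control value of Ccn2, which encodes a secreted matrix-associated factor, lay below every LCN2 value. It rose from 70.5 ± 9.51 to 115.5 ± 13.5 FPKM, a log2 change of 0.77 ± 0.11 (SE; limma, adjusted p = 0.0073), and was called whichever library was left out. Junb, an AP-1 subunit, rose by 0.85 on that scale (adjusted p = 0.012, and up to 0.059 without LCN2 replicate 1 or 3), and Plaur, the urokinase receptor, by 0.44 (adjusted p = 0.014, and up to 0.064 without control replicate 1 or 3 or LCN2 replicate 1 or 3). As background, Ccn2 and Junb also respond to other signals, such as YAP for Ccn2 and growth factors for Junb. Vim, a filament protein of mesenchymal cells, went the other way, from 308.6 ± 3.81 to 235.3 ± 9.14 FPKM (log2 change -0.33, adjusted p = 0.0057), and was called whichever library was left out. Jun was at 10.6 FPKM in control replicate 1 and between 19.7 and 26.4 FPKM elsewhere (adjusted p = 0.10), and Bhlhe40 averaged 38.1 and 39.5 FPKM (adjusted p = 0.21). Among the genes named outside the 10, exons of Ccn2, Junb, Jun, Bhlhe40, Itgav, Thbs1, Furin, Ltbp3, Zfyve9, Nedd4l, Fst, Fstl3 and Sf3b4 overlap those of genes on the other strand.

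**Figure D4:**
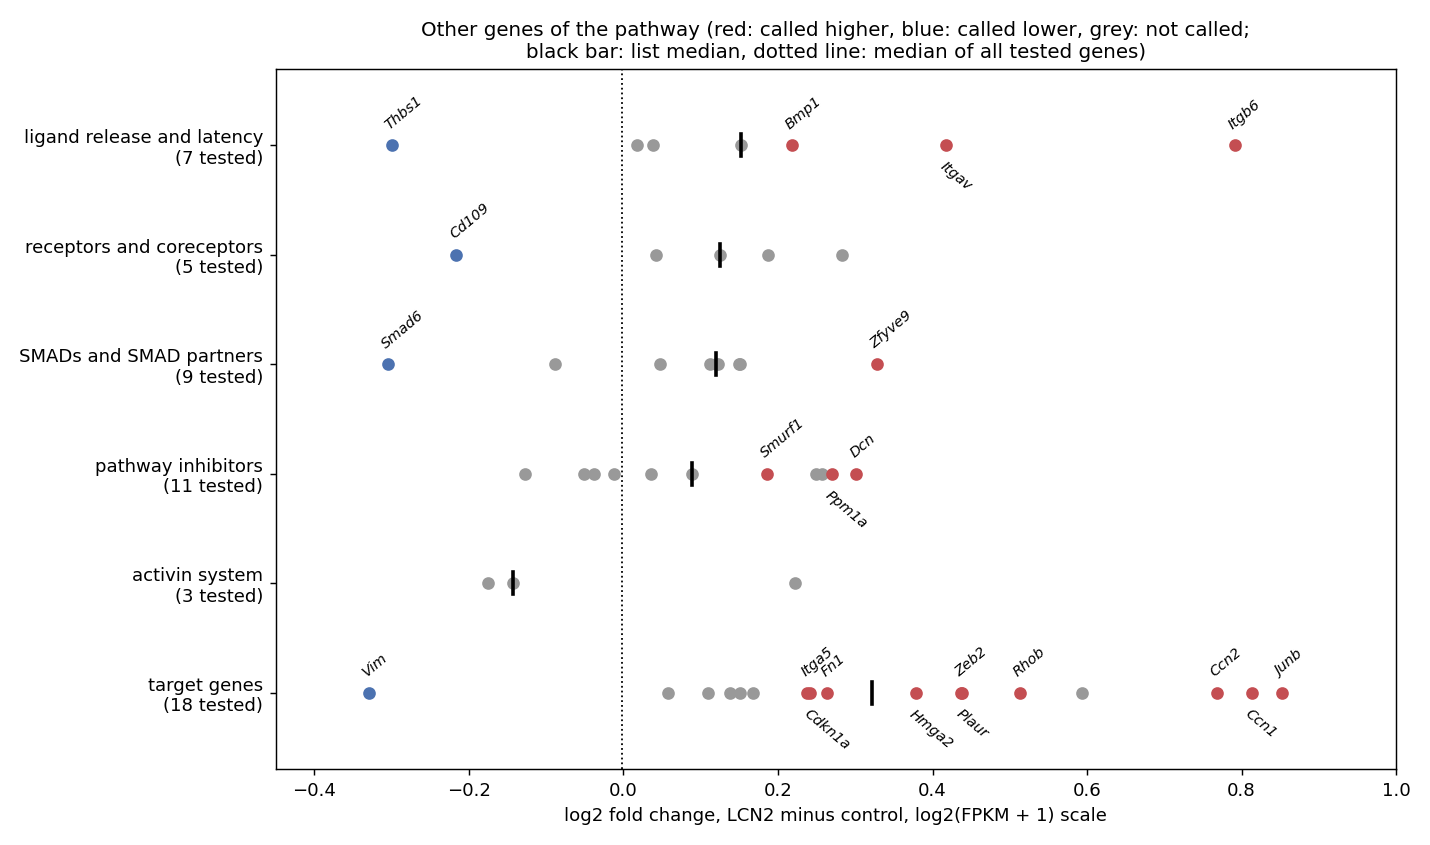
Log2 fold change (LCN2 minus control, horizontal axis) of the tested genes in 6 lists, less 1 target gene that is not drawn, coloured by call, with list medians as black bars and the median of all tested genes as a dotted line. Counts and medians are of all 53 tested genes, Itgb6 reached the level for testing only through its LCN2 values, and Thbs1, Cd109, Smad6 and Vim are those called lower.

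Across all 6 lists 18 of 53 tested genes were called higher and 4 lower. Without Itgb6 they were 17 (32.7%) and 4 (7.69%) of 52, beside 11.6% and 9.87% of all tested genes, so the share called lower was near the background. The median log2 fold change of the 53 was 0.15. Itgb6 was called higher, and is counted in what follows, without control replicate 1, 2 or 3 or LCN2 replicate 2. Without LCN2 replicate 1 or 3 Itgb6 was below the level for testing. Leaving out a library changed the counts, with Itgb6 included where tested, along with those over all genes. Without LCN2 replicate 1 they became 4 and 1 (2.55% of all genes called in either direction), and without LCN2 replicate 3 also 4 and 1 (4.63%). Without control replicate 1 they were 8 and 2 (6.04%), and without control replicate 3 they were 6 and 1 (4.46%). Without control replicate 2 they were 16 and 3 (17.3%), and without LCN2 replicate 2 they were 19 and 4 (30.6%).

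The genes whose scaled log2 levels followed Tgfb1 most closely over the 6 libraries were Sf3b4, a splicing factor gene (Pearson r = 0.999), Igfbp3, which encodes a binding protein of insulin-like growth factors (r = 0.998), and Csrp1, a cytoskeletal LIM protein gene (r = 0.998). These correlations describe 6 libraries that differ by group, and no test is given. The 3 genes were chosen by this correlation, so a pattern like that of Tgfb1 follows from the choice. Each of the 3 genes was lowest in LCN2 replicate 2 within its group, as Tgfb1 was. Their log2 fold changes were 0.27, 0.35 and 0.28.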

How the data were processed

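Per the labels' protocols, a Qiagen RNeasy kit and a SMARTer mRNA library kit were used. The genome build was GRCm38, per the submitters' processing notes; the sources used here name no aligner, quantifier or strand setting. The authors deposited 1 table, named as raw counts, whose values above 0 were whole numbers in 0% of cases (tolerance 1e-09). They were treated as FPKM, since value times transcript length in kilobases (GENCODE M21, 19752 genes matched by ID) summed to between 1032628 and 1095179 per library. Relative depth could not be read from low values: the commonest ratio between libraries held 3 to 5 of 420 to 447 genes, so no counting intervals are given.

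Values were scaled by a trimmed mean of M-values without precision weights and tested with limma 3.58.1 (R 4.3.3, variance trend) on log2(FPKM + 1), restricted to genes averaging 1 FPKM or more. A log2 fold change on this scale understates the change of low genes. P-values are two-sided, with Benjamini-Hochberg adjustment over all 10309 tested genes, and every adjusted p in the text is from limma. Means and SD are of FPKM as deposited. The procedure was checked on simulated data with noise drawn independently for each gene. Apart from a scale factor per library, that check does not cover variation that genes of a library share.

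The members, lists and settings were chosen with earlier results of these data known. Named genes are the members, in each list up to 5 called genes with the smallest adjusted p and the 2 most abundant uncalled ones, the 3 genes most correlated with Tgfb1, and Lcn2. A gene that this rule takes is not reported here. Alternatives covered scaling, pseudocount, filter, variance trend, a replicate block and leaving out each library. Of 88 listed pathway genes 5 were not matched and are not analysed here, Tgfbi among them. Tgfbi, Usp15, Acvrl1, Tnc, Tgfbr3 and the cell type markers were named after the values were seen. Promoter sequences are from RefSeq, GRCm38.p6, which held 7 of the 10 genes.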

Additional observations from a re-analysis of the deposited data

How the results depend on the processing

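With the replicate number as a block, 181 genes were called higher and 86 lower, 2 and 0 among the 10 members (Tgfb1 and Smad3), and 4 and 2 among other pathway genes. The labels do not say whether libraries of equal number are paired. Deviations of same-numbered libraries correlated at -0.22, -0.26 and 0.0086 across genes, and no library correlated best with its own number. Such correlations cannot decide whether the design was paired. Values as deposited gave 693 higher and 1680 lower over all genes and 11 higher among pathway genes; no filter on level gave 612 lower over all genes and 11 higher among pathway genes. Leaving out 1 library gave 174 to 1627 higher and 89 to 1528 lower over all genes, 1 to 4 members higher and 0 lower, and 4 to 19 pathway genes higher and 1 to 4 lower. These counts of pathway genes include Itgb6 wherever it was called. Signs were compared for the tested members and the other named genes only, and among these reversed signs occurred in uncalled ones only. Smad7 was 0.029 without control replicate 2, 0.013 without control replicate 3 and 0.031 without LCN2 replicate 1 (range -0.068 to 0.031 over libraries left out), and Skil -0.038 without control replicate 1 (range -0.038 to 0.27). Ltbp3 was -0.041 as deposited, -0.0087 scaled to column sums, -0.0034 without control replicate 1 and -0.0059 without LCN2 replicate 3 (range -0.0059 to 0.030). Acvr1b was -0.0083 as deposited, Smad2 -0.12 without LCN2 replicate 3 (range -0.12 to 0.24), and Nedd4l 0.00043 and 0.013 without control replicates 2 and 3 (range -0.050 to 0.013). Of the untested members, the Inhba difference of mean log2 values (0.016) changed sign on removal of control replicate 2 (-0.013) or LCN2 replicate 2 (-0.0054). The causes were not tested. Tgfb1 and Smad3 kept their calls in all 9 settings that used every library. Depth is unknown, so values near 0, as for Tgfb2, Tgfb3 and Inhba, have no stated counting error.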

Other observations

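Of 83 matched pathway genes, 30 were below the level for testing. For 9 of them the value was exactly 0 throughout the 6 libraries, which may also mark a failed estimate. Those 9, named after their values were seen, were the integrin gene Itgb8, the coreceptor gene Tdgf1, the ligand and subunit genes Inha, Mstn, Nodal and Lefty1, and the target genes Snai2, Twist1 and Pthlh. A further 10 never exceeded 0.1 FPKM, among them the latency gene Ltbp1 and the SMAD-induced inhibitor Pmepa1, a widely used TGF-beta response gene, at 0.0162 FPKM in control and 0.0309 FPKM in LCN2 cells. The ligand-presenting coreceptor gene Tgfbr3 averaged 0.244 FPKM in control and 0.159 FPKM in LCN2 cells. Acvrl1, a type I receptor gene, averaged 0.358 and 0.491 FPKM, and Tnc, the matrix protein gene tenascin-C, 0.790 and 0.934 FPKM. These 3 were the untested pathway genes whose groups did not overlap as deposited (2 higher and 1 lower of 21 above 0), beside 5.95% higher and 6.67% lower among 3779 untested genes above 0 in the whole table, and have no test.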
